A study of Mus musculus with 14 samples.

Results

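Interferon-stimulated genes are genes whose transcription rises when a cell meets interferon. A list of 38 of them was followed across the arrays. Each gene was matched by its symbol to a probe set, the group of array probes that reads 1 transcript cluster, and where a symbol had several sets the one with the highest mean over the 14 arrays would have been taken. In the table used here 36 of the 38 genes had a probe set, 1 each, among 22206 tested probe sets, while Ddx60 and Ifi44 had none.

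The cells were mouse hematopoietic progenitor cells (HPCs), the lineage-negative fraction of bone marrow, kept in culture for 48 h and then exposed to a retrovirus on retronectin-coated plates. NMyc cells received MSCV-NMyc-IRES-YFP, which carries N-Myc with a yellow fluorescent marker, and Ctrl cells received the marker vector MSCV-IRES-YFP alone. The virus came from GP+E86 packaging cells, and the vector is driven by a viral promoter that works in many blood cell types. Donor mice were Hom (Polgmut/mut), Het (Polgwt/mut) or WT (Polgwt/wt) for Polg, the gene of the polymerase that copies mitochondrial DNA. No age or sex was used here, and the labels name no sort for fluorescent cells. The groups were WT-NMyc, Het-NMyc and Hom-NMyc with 2 arrays each, set against WT-Ctrl and Het-Ctrl with 3 arrays each and Hom-Ctrl with 2. The labels call the arrays biological replicates without naming the animals, so a p-value reflects the scatter among these arrays, which may be technical in part. The series addresses the expression changes that go with N-Myc and with somatic mutations of mitochondrial DNA.

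Type I interferons signal through a receptor pair, IFNAR1 and IFNAR2, and the kinases JAK1 and TYK2. STAT2 and IRF9 then act in a complex, ISGF3, that binds the interferon-stimulated response element (ISRE) in promoters. Interferon gamma acts mainly through the gamma-activated site (GAS). The products block virus entry, RNA translation and replication, load peptides onto MHC class I molecules or feed back on the pathway, and in bone marrow the same signal is known to act on stem and progenitor cells. Many of these genes also have a low level without added interferon.

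Promoters show which of these sites lie close to the start of each gene. RefSeq promoters (build GRCm38.p6) were found for 30 of the 38 genes, and the 250 bases before the start were searched on both strands for an ISRE core (GAAA, any 2 bases, GAAA), a GAS core (TTCNNNGAA) and the E-box that MYC proteins bind (CACGTG). The ISRE core was present in 13 of the 30 genes (43.3%), against 3.46% of all 27025 genes in the promoter table. A GAS core was present in 6 of the 30 (20%), against 8.13% of all genes. The E-box was found in Trim25 alone (3.33%), against 6.86% of all genes. A few promoters are printed to show how the sites are laid out, each as the 150 bases that end just before the start, written 5′ to 3′ along the gene, with capitals for ISRE and GAS cores on either strand:
Isg15, chr4:156200819-156200968, minus strand: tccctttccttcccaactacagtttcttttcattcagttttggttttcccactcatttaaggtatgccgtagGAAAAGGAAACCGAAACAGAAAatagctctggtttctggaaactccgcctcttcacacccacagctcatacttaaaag
Igtp, chr11:58199406-58199555, plus strand: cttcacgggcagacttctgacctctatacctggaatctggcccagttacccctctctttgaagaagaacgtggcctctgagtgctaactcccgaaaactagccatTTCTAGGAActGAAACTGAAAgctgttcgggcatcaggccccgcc
Gbp2, chr3:142620513-142620662, plus strand: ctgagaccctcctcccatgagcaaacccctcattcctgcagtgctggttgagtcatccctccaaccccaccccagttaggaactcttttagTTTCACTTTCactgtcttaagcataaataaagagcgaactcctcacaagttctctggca
Isg20, chr7:78913274-78913423, plus strand: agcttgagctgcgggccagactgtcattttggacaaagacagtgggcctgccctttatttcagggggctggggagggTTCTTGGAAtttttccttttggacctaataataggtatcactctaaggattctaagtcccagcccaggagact
Bst2, chr8:71537473-71537622, minus strand: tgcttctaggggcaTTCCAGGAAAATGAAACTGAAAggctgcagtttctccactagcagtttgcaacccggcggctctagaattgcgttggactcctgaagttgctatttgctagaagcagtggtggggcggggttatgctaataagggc
Ifit1, chr19:34640739-34640888, plus strand: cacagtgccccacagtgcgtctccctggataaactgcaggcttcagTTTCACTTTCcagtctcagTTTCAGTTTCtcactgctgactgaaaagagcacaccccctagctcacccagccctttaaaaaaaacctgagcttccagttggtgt

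The run of capitals in Isg15 holds 3 overlapping ISRE cores that begin 78, 72 and 66 bases before the start. Igtp has a GAS core at 45 and an ISRE core at 34 bases before the start, with 2 bases between them. In Bst2 a GAS core at 136 runs into 2 ISRE cores at 130 and 124. Gbp2 has a single ISRE core at 59 and Ifit1 has a pair at 104 and 85, all read on the opposite strand. For Isg20 the table holds 3 promoters, and the one with a GAS core, at 73, is shown. A match is a description of letters and not a proven binding site.

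Levels set the limits of what the arrays could read. Values are log2 units, and since probe sets differ in how they bind, the level of one gene is not set against another's. Of the 36 genes, 26 lay above the median of the array's 5222 negative control sets on all 14 arrays. Against the stricter 95th percentile of those control sets, 8 genes lay above it on all 14 arrays (Trim25, Eif2ak2, Adar, Bst2, Ifitm3, Dtx3l, Tap1 and Ifi35), 4 on some arrays and 24 on none. Rtp4 lay above the control median on 0 arrays, Oasl1 and Mx1 on 1, Oas3 and Gbp2 on 4, Ifit1 on 7, Ifit2 on 10, Oas2 on 11, Irf7 on 12 and Usp18 on 13. Several well-known responders were thus at or near background in these cells, and the number of arrays limits the precision further. Positive controls stood above negative ones by 4.36 ± 0.188 log2 units on NMyc arrays (SD, n = 6), against 3.96 ± 0.186 on Ctrl arrays (SD, n = 8). Family members with similar sequences (Gbp, Oas, Ifit and Irgm genes) may share probe signal.

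**Figure D1:**
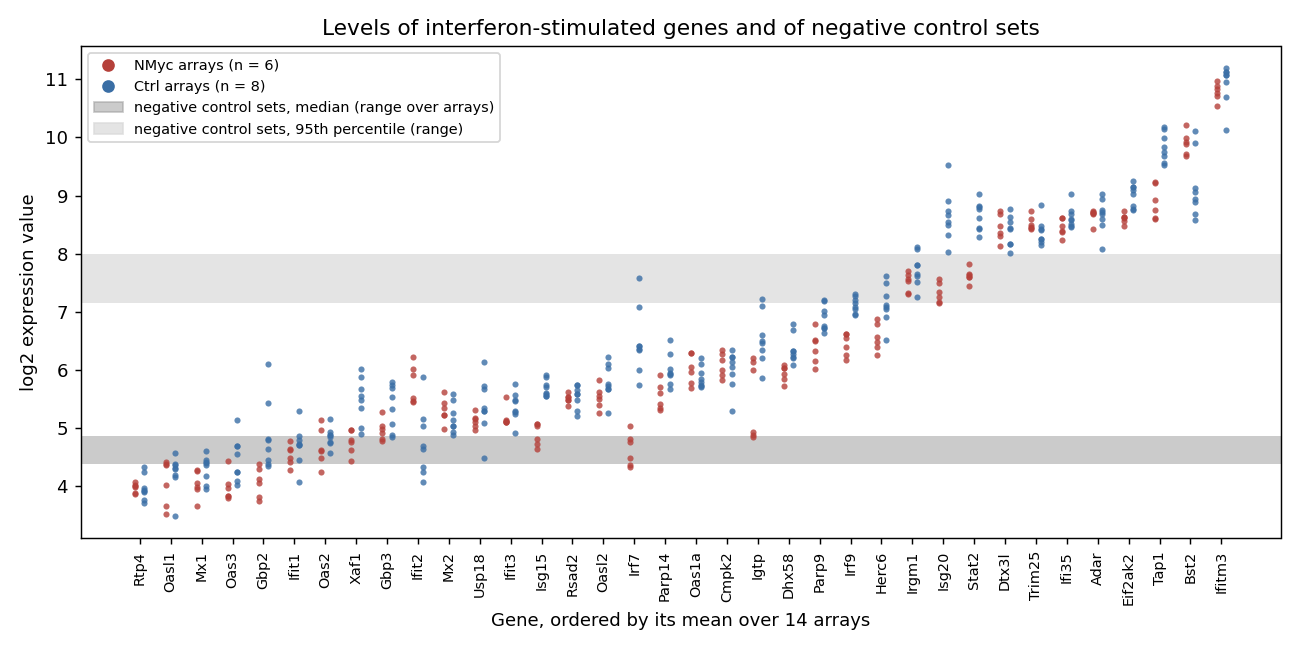
Level of each of the 36 genes on every array (y axis, log2 expression value; genes ordered by their mean over 14 arrays for display), with 6 NMyc arrays in red and 8 Ctrl arrays in blue. Grey bands give the range over arrays of the median (4.39 to 4.70 on NMyc arrays, 4.47 to 4.87 on Ctrl arrays) and of the 95th percentile of negative control sets (7.15 to 7.60 on NMyc arrays, 7.40 to 8.0 on Ctrl arrays).

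The transduced gene was read first. Mycn was between 12.15 and 12.38 on the 6 NMyc arrays, against 7.43 to 7.76 on 7 of the 8 Ctrl arrays. The array labelled Hom-Ctrl 1 stood apart with a Mycn value of 9.77, so results that rest on Hom-Ctrl are also given without it. Endogenous Myc was 1.32 log2 units lower with NMyc as an average over genotypes, a difference of -1.32 (SE 0.10, adjusted p = 4.51e-08).

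N-Myc went with lower levels of 16 of the 36 genes and higher levels of 2 when its effect was averaged over the 3 genotypes. The genes that fell most were Irf7, Isg20, Igtp and Stat2, by 1.79, 1.38, 1.11 and 1.04 log2 units, and the genes that rose were Ifit2 and Bst2. Differences are NMyc minus Ctrl in log2 units with the standard error of limma's model, and a gene was called where limma's p, after Benjamini-Hochberg adjustment over the 22206 probe sets, was under 0.05. Of all tested probe sets 33.6% were called in this comparison, 18.2% higher and 15.5% lower. Of the 36 genes 50% were called, 5.56% higher and 44.4% lower. Counts by role below refer to the same comparison and stand beside the same shares of all probe sets. The median difference of the 36 genes was -0.27, against -0.02 over all tested probe sets, and 28 of the 36 were below 0. As these are bulk cells, fewer cells of a type and less RNA per cell cannot be told apart.

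**Figure D2:**
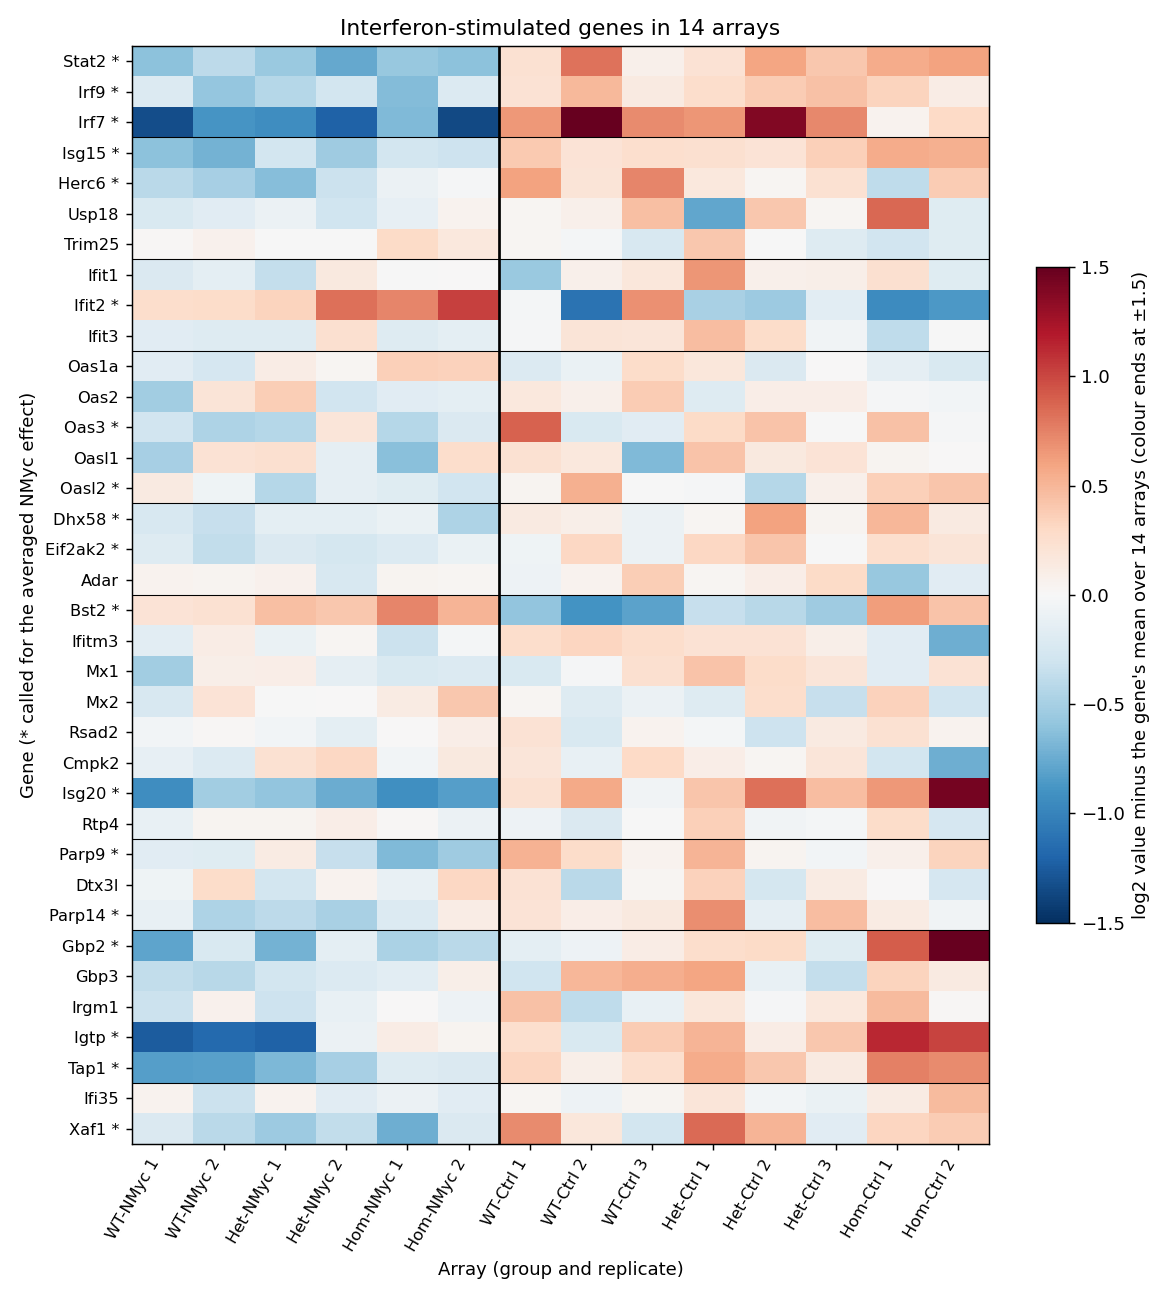
Heat map of the 36 genes (rows) over the 14 arrays (columns, NMyc groups left, Ctrl groups right), coloured by the log2 value minus the gene's mean over all arrays, with the scale ending at ±1.5. Stars mark the 18 genes called for the averaged NMyc effect, 16 of them lower and 2 higher on NMyc arrays.

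All 3 transcription factors of the list fell. Irf7 encodes the factor that drives interferon alpha genes and is itself raised by interferon. It had values of 4.37 and 4.81 on WT-NMyc arrays, 4.77 and 4.49 on Het-NMyc arrays and 5.04 and 4.34 on Hom-NMyc arrays, against 6.35, 7.58 and 6.41 on WT-Ctrl arrays, 6.36, 7.09 and 6.42 on Het-Ctrl arrays and 5.75 and 6.0 on Hom-Ctrl arrays. All NMyc arrays lay below all Ctrl arrays, the difference was -1.79 (SE 0.20, adjusted p = 2.55e-06), and 2 of the 6 NMyc arrays were not above the control median. With those arrays put at that median, Irf7 was at least 3.29-fold lower with NMyc. Stat2, a part of ISGF3, had values of 7.60 and 7.82 on WT-NMyc arrays, 7.66 and 7.45 on Het-NMyc arrays and 7.64 and 7.60 on Hom-NMyc arrays, against 8.44, 9.03 and 8.29 on WT-Ctrl arrays, 8.43, 8.81 and 8.62 on Het-Ctrl arrays and 8.77 and 8.82 on Hom-Ctrl arrays. The groups did not overlap, and Stat2 fell 2.05-fold (log2 difference -1.04, SE 0.12, adjusted p = 3.21e-06). Irf9, the DNA-binding part of ISGF3, had values of 6.62 and 6.25 on WT-NMyc arrays, 6.40 and 6.55 on Het-NMyc arrays and 6.18 and 6.62 on Hom-NMyc arrays, against 7.05, 7.31 and 6.96 on WT-Ctrl arrays, 7.09, 7.21 and 7.27 on Het-Ctrl arrays and 7.16 and 6.94 on Hom-Ctrl arrays. Its 6 NMyc arrays were again all lower, with a 1.60-fold fall (log2 difference -0.68, SE 0.10, adjusted p = 7.50e-05).

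**Figure D3:**
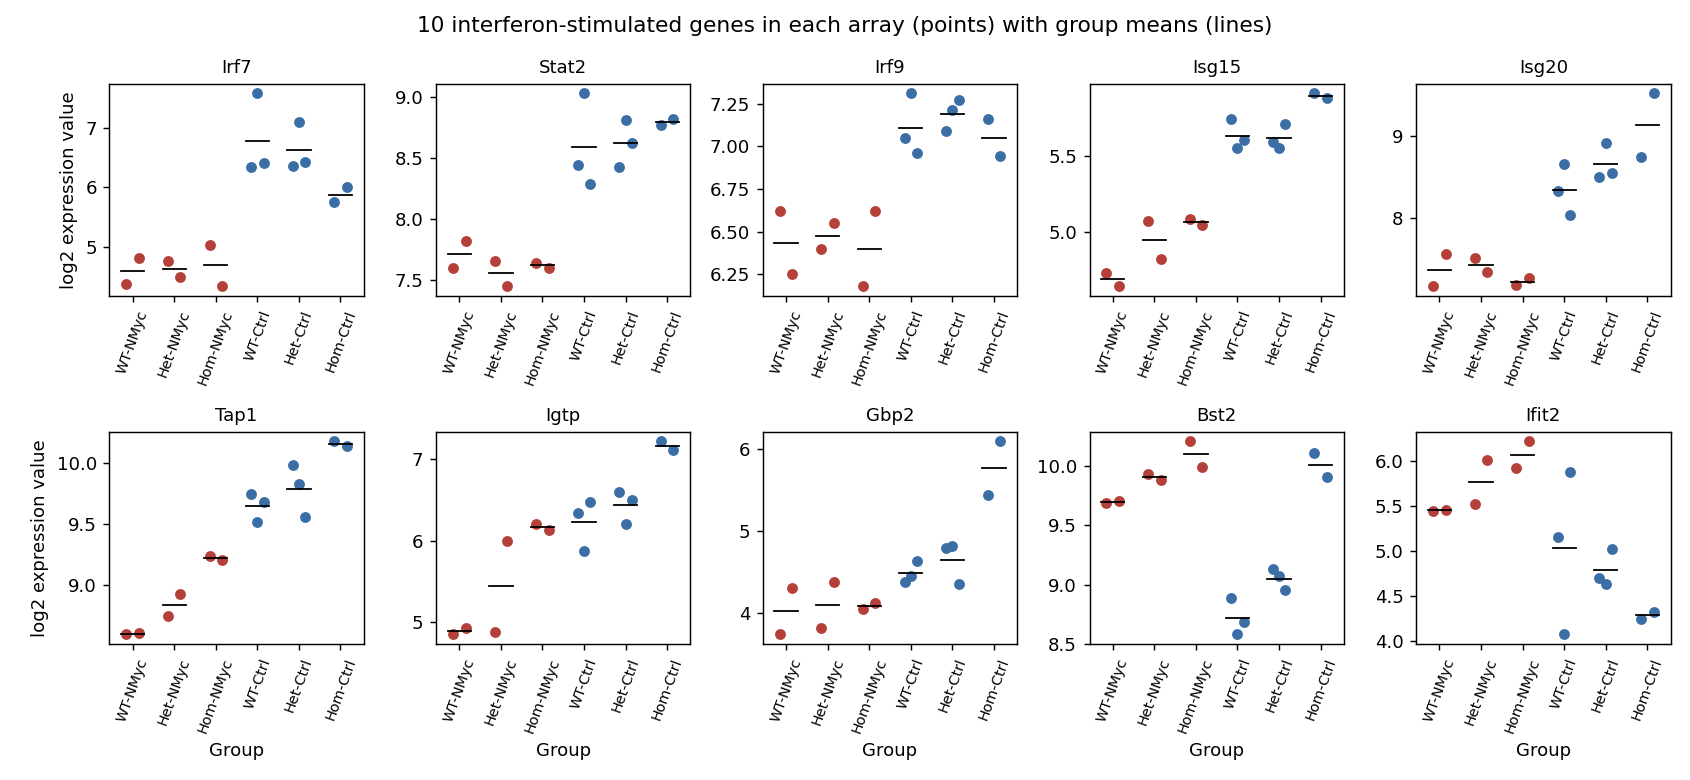
Log2 expression value (y axis) of 10 genes on each array (points) in the 6 groups (x axis, NMyc groups left), with lines at group means. Irf7, Stat2, Irf9, Isg15, Isg20 and Tap1 were lower on all 6 NMyc arrays than on all 8 Ctrl arrays, while for Bst2 the 2 Hom-Ctrl arrays lay within the range of the NMyc arrays.

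In the ISG15 system 2 of 4 genes fell, where 15.5% of all probe sets were called lower. ISG15 is a ubiquitin-like protein that is attached to other proteins after interferon. Isg15 had values of 4.73 and 4.64 on WT-NMyc arrays, 5.07 and 4.82 on Het-NMyc arrays and 5.08 and 5.04 on Hom-NMyc arrays, against 5.74, 5.55 and 5.60 on WT-Ctrl arrays, 5.59, 5.55 and 5.71 on Het-Ctrl arrays and 5.91 and 5.88 on Hom-Ctrl arrays. The values did not overlap between vectors, and the fall was 1.76-fold (log2 difference -0.82, SE 0.08, adjusted p = 9.66e-07). Isg15 lay above the control median on all 14 arrays but above the 95th percentile of control sets on 0. On WT-NMyc 1 it read 4.73, where the control median was 4.7, so this fold is read near background. Herc6, the ligase that attaches ISG15 in mice, had values of 6.48 and 6.39 on WT-NMyc arrays, 6.25 and 6.57 on Het-NMyc arrays and 6.80 and 6.87 on Hom-NMyc arrays, against 7.49, 7.08 and 7.62 on WT-Ctrl arrays, 7.05, 6.92 and 7.12 on Het-Ctrl arrays and 6.51 and 7.27 on Hom-Ctrl arrays. Only Hom-Ctrl 1, at 6.51, lay within the NMyc range, and Herc6 fell 1.46-fold (log2 difference -0.55, adjusted p = 0.00233). Usp18, which removes ISG15 and restrains the receptor, did not pass the test (-0.28, adjusted p = 0.274), and neither did Trim25, a ubiquitin ligase for the RNA sensor RIG-I (0.17, adjusted p = 0.228).

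Among the IFIT genes, whose products bind foreign RNA, Ifit2 rose and the other 2 were not called. Ifit2 had values of 5.45 and 5.46 on WT-NMyc arrays, 5.52 and 6.01 on Het-NMyc arrays and 5.92 and 6.22 on Hom-NMyc arrays, against 5.16, 4.08 and 5.88 on WT-Ctrl arrays, 4.70, 4.64 and 5.03 on Het-Ctrl arrays and 4.25 and 4.33 on Hom-Ctrl arrays. Apart from WT-Ctrl 3, at 5.88, every Ctrl array was below every NMyc array, and the difference was 1.06 (SE 0.20, adjusted p = 0.000632). Because 4 of the 8 Ctrl arrays were not above the control median, Ifit2 was at least 1.78-fold higher with NMyc. Ifit1 lay between 4.28 and 4.78 on NMyc arrays, against 4.07 to 5.29 on Ctrl arrays (adjusted p = 0.448). Ifit3 lay between 5.10 and 5.53 on NMyc arrays, against 4.91 to 5.76 on Ctrl arrays (adjusted p = 0.295). The 3 family members thus had differences of different sign, with 1 call.

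The OAS genes encode enzymes that answer double-stranded RNA by making oligoadenylates, which switch on RNase L. In the averaged effect 2 of the 5 were called lower, both near the threshold, where 15.5% of all probe sets were called lower. Oas3 had values of 3.97 and 3.80 on WT-NMyc arrays, 3.83 and 4.44 on Het-NMyc arrays and 3.83 and 4.04 on Hom-NMyc arrays, against 5.14, 4.03 and 4.09 on WT-Ctrl arrays, 4.55, 4.69 and 4.25 on Het-Ctrl arrays and 4.70 and 4.24 on Hom-Ctrl arrays. Both groups had 5 arrays not above the control median, so no fold is given for Oas3 (log2 difference -0.48, adjusted p = 0.0382), and the call was lost under 12 of 21 alternative settings, the code run block among them (-0.27, adjusted p = 0.247). Oasl2 had values of 5.82 and 5.62 on WT-NMyc arrays, 5.26 and 5.55 on Het-NMyc arrays and 5.51 and 5.40 on Hom-NMyc arrays, against 5.73, 6.22 and 5.68 on WT-Ctrl arrays, 5.67, 5.26 and 5.76 on Het-Ctrl arrays and 6.04 and 6.10 on Hom-Ctrl arrays. The groups overlapped, and this call (-0.31, adjusted p = 0.0448) was lost under 16 of 21 settings, the code run block among them (-0.33, adjusted p = 0.0900). Oas1a (0.14), Oas2 (-0.16) and Oasl1 (-0.15) were not called.

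Of 3 genes for RNA sensing and editing, 2 fell, where 15.5% of all probe sets were called lower. Eif2ak2 encodes PKR, the kinase that stops translation on double-stranded RNA. It had values of 8.64 and 8.47 on WT-NMyc arrays, 8.62 and 8.57 on Het-NMyc arrays and 8.63 and 8.74 on Hom-NMyc arrays, against 8.77, 9.14 and 8.75 on WT-Ctrl arrays, 9.15, 9.25 and 8.83 on Het-Ctrl arrays and 9.09 and 9.03 on Hom-Ctrl arrays. The fall was small, at 1.32-fold (log2 difference -0.40, SE 0.10, adjusted p = 0.00411). The highest NMyc value, 8.74, lay just below the lowest Ctrl value, 8.75. Dhx58, which encodes the RNA helicase LGP2, had values of 5.94 and 5.84 on WT-NMyc arrays, 6.04 and 6.03 on Het-NMyc arrays and 6.08 and 5.72 on Hom-NMyc arrays, against 6.32, 6.27 and 6.09 on WT-Ctrl arrays, 6.21, 6.79 and 6.22 on Het-Ctrl arrays and 6.68 and 6.32 on Hom-Ctrl arrays. All NMyc arrays were below all Ctrl arrays here too (log2 difference -0.44, SE 0.11, adjusted p = 0.00571), by a narrow gap from 6.08 to 6.09. Neither Eif2ak2 nor Dhx58 was called within any single genotype. Adar, the RNA-editing enzyme, had a difference of 0.03 (adjusted p = 0.844).

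Among 8 other antiviral effectors 1 fell, 1 rose and 6 were not called, where 33.6% of all probe sets were called. Isg20, an RNA exonuclease, had values of 7.16 and 7.56 on WT-NMyc arrays, 7.50 and 7.34 on Het-NMyc arrays and 7.17 and 7.26 on Hom-NMyc arrays, against 8.32, 8.66 and 8.03 on WT-Ctrl arrays, 8.50, 8.91 and 8.55 on Het-Ctrl arrays and 8.74 and 9.52 on Hom-Ctrl arrays. The vectors did not overlap, and Isg20 fell 2.60-fold (log2 difference -1.38, SE 0.14, adjusted p = 9.68e-07). Bst2 encodes tetherin, which holds budding virus particles at the cell surface. It had values of 9.69 and 9.71 on WT-NMyc arrays, 9.93 and 9.88 on Het-NMyc arrays and 10.21 and 9.99 on Hom-NMyc arrays, against 8.89, 8.58 and 8.68 on WT-Ctrl arrays, 9.13, 9.07 and 8.95 on Het-Ctrl arrays and 10.11 and 9.91 on Hom-Ctrl arrays. WT-Ctrl and Het-Ctrl arrays were all lower than the NMyc arrays while Hom-Ctrl arrays were as high, and the averaged rise was 1.56-fold (log2 difference 0.64, SE 0.09, adjusted p = 1.98e-05). Mx1, Mx2, Rsad2, Rtp4, Ifitm3 and Cmpk2 had averaged differences from -0.26 (Mx1, adjusted p = 0.104) to 0.15 (Cmpk2, adjusted p = 0.290).

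PARP9 and DTX3L form a pair that modifies proteins at sites of damage and of interferon signalling, and PARP14 is a related enzyme. Parp9 had values of 6.51 and 6.50 on WT-NMyc arrays, 6.80 and 6.33 on Het-NMyc arrays and 6.02 and 6.15 on Hom-NMyc arrays, against 7.20, 6.95 and 6.73 on WT-Ctrl arrays, 7.19, 6.72 and 6.64 on Het-Ctrl arrays and 6.76 and 7.01 on Hom-Ctrl arrays. Het-NMyc 1 was the one NMyc array within the Ctrl range, and Parp9 fell 1.42-fold (log2 difference -0.51, adjusted p = 0.00254). Parp14 had values of 5.70 and 5.34 on WT-NMyc arrays, 5.41 and 5.32 on Het-NMyc arrays and 5.60 and 5.92 on Hom-NMyc arrays, against 6.01, 5.91 and 5.95 on WT-Ctrl arrays, 6.51, 5.67 and 6.27 on Het-Ctrl arrays and 5.93 and 5.76 on Hom-Ctrl arrays. The groups overlapped slightly (log2 difference -0.44, adjusted p = 0.0109), and with sample code runs as a block the call was lost (-0.34, adjusted p = 0.0663). Dtx3l, by contrast, had a difference of 0.06 (adjusted p = 0.771).

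Of 5 GTPases and peptide transport genes, 3 fell, where 15.5% of all probe sets were called lower. TAP1 is a subunit of the pump that brings peptides to MHC class I molecules. Tap1 had values of 8.60 and 8.61 on WT-NMyc arrays, 8.75 and 8.93 on Het-NMyc arrays and 9.24 and 9.21 on Hom-NMyc arrays, against 9.75, 9.52 and 9.68 on WT-Ctrl arrays, 9.99, 9.83 and 9.56 on Het-Ctrl arrays and 10.18 and 10.14 on Hom-Ctrl arrays. No NMyc array reached the Ctrl range, and Tap1 fell 1.97-fold (log2 difference -0.98, SE 0.09, adjusted p = 3.96e-07). Igtp, a GTPase of the IRG family that acts on vacuoles of intracellular parasites, had values of 4.85 and 4.93 on WT-NMyc arrays, 4.88 and 6.0 on Het-NMyc arrays and 6.20 and 6.13 on Hom-NMyc arrays, against 6.34, 5.87 and 6.47 on WT-Ctrl arrays, 6.60, 6.20 and 6.50 on Het-Ctrl arrays and 7.22 and 7.11 on Hom-Ctrl arrays. Within each genotype the vectors did not overlap, and Igtp fell 2.16-fold (log2 difference -1.11, SE 0.15, adjusted p = 2.45e-05). Igtp too lay above the 95th percentile of control sets on 0 of 14 arrays, and WT-NMyc 1 read 4.85, where the control median was 4.7. Gbp2, a guanylate-binding protein, had values of 3.74 and 4.30 on WT-NMyc arrays, 3.82 and 4.38 on Het-NMyc arrays and 4.05 and 4.12 on Hom-NMyc arrays, against 4.38, 4.45 and 4.64 on WT-Ctrl arrays, 4.79, 4.82 and 4.35 on Het-Ctrl arrays and 5.44 and 6.10 on Hom-Ctrl arrays. No NMyc array and 4 of 8 Ctrl arrays were above the control median, both Hom-Ctrl arrays among them (log2 difference -0.90, adjusted p = 7.52e-05). Gbp3 (-0.39, adjusted p = 0.0648) and Irgm1 (-0.24, adjusted p = 0.189) were not called.

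Xaf1 and Ifi35 were the remaining pair. Xaf1, named for its binding to an inhibitor of apoptosis, had values of 4.96 and 4.77 on WT-NMyc arrays, 4.63 and 4.80 on Het-NMyc arrays and 4.44 and 4.96 on Hom-NMyc arrays, against 5.88, 5.34 and 4.90 on WT-Ctrl arrays, 6.02, 5.68 and 5.0 on Het-Ctrl arrays and 5.49 and 5.56 on Hom-Ctrl arrays. WT-Ctrl 3 was the one Ctrl array within the NMyc range (log2 difference -0.73, SE 0.17, adjusted p = 0.00263). Ifi35 was not called (-0.21, adjusted p = 0.112).

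The ISRE core was found in 5 of 13 genes that were called lower and had a promoter in the table (Stat2, Isg15, Oas3, Gbp2 and Igtp). It was found in 6 of 13 genes that were not called (Ifit1, Ifit3, Oas1a, Rsad2, Gbp3 and Irgm1). Both genes called higher, Ifit2 and Bst2, had a GAS core, as did 3 of the 13 called lower and 1 of the 13 not called. The printed Isg15 and Ifit1 promoters therefore carry the same core in a gene that fell and in one that was not called.

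Most calls were lower with NMyc within each genotype too. In WT cells 9 of 36 genes were called, 1 higher and 8 lower, where 19.1% of all probe sets were called (10.1% higher, 9.05% lower). In Het cells 11 were called, 1 higher and 10 lower, where 19.1% of all were called (11.1% higher, 8% lower). In Hom cells 12 were called, 3 higher and 9 lower, where 17.7% of all were called (10.7% higher, 7.01% lower). The medians of the 36 differences were -0.32 in WT, -0.28 in Het and -0.25 in Hom. The 7 genes called lower in all 3 genotypes were Stat2, Irf9, Irf7, Isg15, Isg20, Igtp and Tap1. How many of all probe sets were called lower in all 3 was not counted, so the 7 have no background share. The 3 genotypes were also fitted together with 1 shared estimate of the spread. Of these 7 genes, Tap1 alone was called in each genotype under every alternative run. Irf9 in Hom was -0.67 (adjusted p = 0.0517) with sample code runs as a block, and Igtp in Het was -0.44 (adjusted p = 0.291) without Het-NMyc 1.

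**Figure D4:**
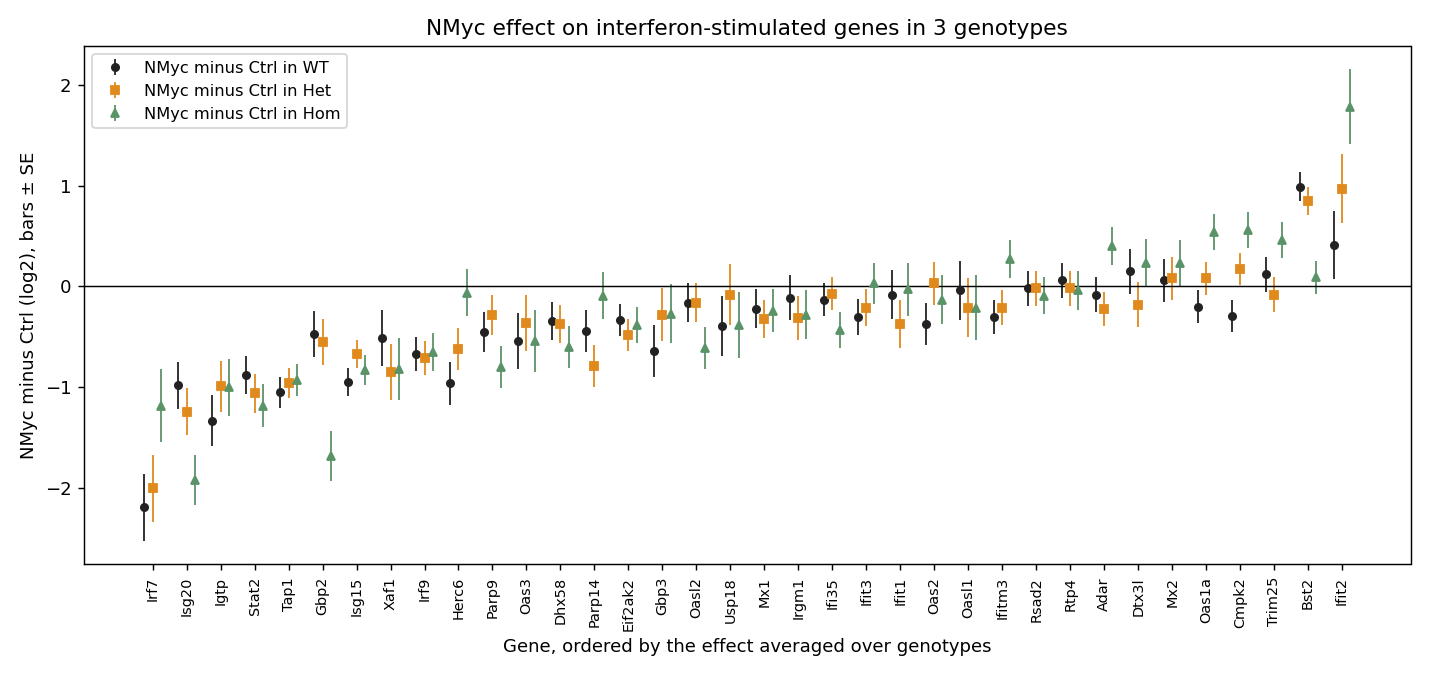
NMyc minus Ctrl (y axis, log2) for each of the 36 genes, with one marker per genotype and bars of ± 1 SE, ordered by the effect averaged over genotypes. Of the 36 genes 7 were called lower in all 3 genotypes, and 20 were called in none, counts that were not taken over all probe sets.

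No gene of the list passed the test of a difference in NMyc effect between genotypes, and the values of genes called in some genotypes alone follow as a description. Bst2 was 1.98-fold higher with NMyc in WT cells (log2 difference 0.99, adjusted p = 0.000169) and 1.81-fold higher in Het cells (0.85, adjusted p = 0.000554), while in Hom cells its difference was 0.09 (adjusted p = 0.774). The difference between the Hom and WT effects of Bst2 was -0.90 (SE 0.21, unadjusted p = 0.000745), which did not pass adjustment (adjusted p = 0.159). Gbp2 was at least 2.54-fold lower with NMyc in Hom cells (log2 difference -1.68, adjusted p = 0.000313), while in WT cells no array of either vector was above the control median for Gbp2. Ifit2 was at least 2.70-fold higher in Hom cells (1.78, adjusted p = 0.00352), against 0.97 in Het (adjusted p = 0.0602) and 0.41 in WT (adjusted p = 0.497). Herc6 fell 1.95-fold in WT cells (-0.96, adjusted p = 0.00339) and had a difference of -0.06 in Hom cells (adjusted p = 0.910), with a Hom minus WT effect of 0.91 (adjusted p = 0.370). That small Hom difference depended on Hom-Ctrl 1, where Herc6 was 6.51, against 7.27 on Hom-Ctrl 2. For the single pair Hom-NMyc 1 minus Hom-Ctrl 2, given without a test, the Herc6 difference was -0.47. Hom-NMyc 2, not in that pair, was at 6.87. Oas1a (0.54, adjusted p = 0.0452) and Cmpk2 (0.56, adjusted p = 0.0419) were called higher in Hom cells and in neither other genotype. The Oas1a call was lost under 13 of 21 alternative settings and the Cmpk2 call under 12 of 21, with a Cmpk2 difference of 0.34 (adjusted p = 0.313) without Hom-Ctrl 2. In all, 0 of 36 genes were called for the Hom minus WT effect. Over all probe sets 18 (0.0811%) were called, 0.0721% higher and 0.00901% lower. An unadjusted p under 0.05 was found for 8 of the 36 genes, against 1896 of the 22206 tested probe sets. For the Het minus WT effect 0 of the 36 genes were called, where 0% of probe sets were called. Of the 36 genes 0 had an unadjusted p under 0.05, against 730 of all tested probe sets.

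Without the array Hom-Ctrl 1, 8 genes were called in Hom cells, 2 higher and 6 lower, where 10.8% of probe sets were called, and the single Hom-Ctrl array was then assumed to vary like the other groups. The 4 genes no longer called, each in its earlier direction, were Irf7 (-1.31, adjusted p = 0.0837), Igtp (-0.95, adjusted p = 0.108), Irf9 (-0.54, adjusted p = 0.176) and Oas1a (0.59, adjusted p = 0.116). Isg20 (-2.31, adjusted p = 0.000286), Gbp2 (-2.02, adjusted p = 0.000719) and Ifit2 (1.75, adjusted p = 0.0294) were still called. The averaged effect had 16 calls without it, 2 higher and 14 lower.

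Sample codes in the labels form 3 runs, which the labels do not call batches. Runs 2 and 3 hold both vectors, and 5 NMyc minus Ctrl differences could be taken within a run and genotype. The median over the 36 genes was -0.37 and -0.32 in WT, -0.28 and -0.23 in Het and -0.26 in Hom. Of the 18 called genes, 13 moved in the direction of the averaged effect in 5 of 5 within-run differences, and Ifit2, Oas3, Oasl2, Parp9 and Gbp2 in 4 of 5. The same arrays gave these calls, so shared direction is partly built in and is no separate support. For Irf7 the within-run differences ran from -3.21 to -0.96, and its highest Ctrl values, 7.58 and 7.09, both came from run 2.

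Few of the 36 genes differed by genotype in cells with the Ctrl vector, and those called higher in Hom were Bst2 and Gbp2. Between Hom-Ctrl and WT-Ctrl 4 of 36 genes were called, 2 higher and 2 lower, where 3.91% of all probe sets were called (2.03% higher, 1.88% lower). Bst2 was 2.46-fold higher in Hom-Ctrl, with 10.11 and 9.91, against 8.89, 8.58 and 8.68 in WT-Ctrl (log2 difference 1.30, SE 0.14, adjusted p = 0.000377). Gbp2 was at least 2.13-fold higher, with 5.44 and 6.10 in Hom-Ctrl, against 4.38, 4.45 and 4.64 in WT-Ctrl, where no array was above the control median (log2 difference 1.28, adjusted p = 0.00691). Ifitm3, a membrane protein that blocks virus entry, was 1.66-fold lower, with 10.70 and 10.13 in Hom-Ctrl, against 11.13, 11.19 and 11.13 in WT-Ctrl (log2 difference -0.73, adjusted p = 0.0273). Cmpk2, a mitochondrial nucleotide kinase, was 1.55-fold lower, with 5.76 and 5.30 in Hom-Ctrl, against 6.22, 5.93 and 6.34 in WT-Ctrl (log2 difference -0.63, adjusted p = 0.0442). For these 4 genes, already picked by their calls, the groups did not overlap. How many of all probe sets had no overlap was not counted, so this is no separate support. The Cmpk2 call was lost under 17 of 21 alternative settings.

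Other genes with larger differences did not pass the test. Igtp had a difference of 0.94 between Hom-Ctrl and WT-Ctrl (adjusted p = 0.0514), Isg20 of 0.80 (adjusted p = 0.0691) and Tap1 of 0.51 (adjusted p = 0.0750), and Irf7 had one of -0.91 (adjusted p = 0.153). The median over the 36 genes was 0.11, against 0 over all probe sets.

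Set against Het-Ctrl, Hom-Ctrl had 2 called genes, both higher, where 2.4% of probe sets were called (1.34% higher, 1.06% lower). Bst2 was 1.95-fold higher than the Het-Ctrl values of 9.13, 9.07 and 8.95 (log2 difference 0.96, adjusted p = 0.0038). Gbp2 was at least 2.02-fold higher than the Het-Ctrl values of 4.79, 4.82 and 4.35 (1.12, adjusted p = 0.0199). Het-Ctrl against WT-Ctrl had 0 calls among the 36 genes and 0% among all probe sets. There 1 gene, Bst2, had an unadjusted p under 0.05 (0.34, unadjusted p = 0.0197), against 935 of the 22206 tested probe sets. Both comparisons of Hom-Ctrl use the same 2 arrays.

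Apart from those of Bst2, these calls depended on which of the 2 arrays was kept. Without Hom-Ctrl 1, 5 genes were called against WT-Ctrl, among them Bst2 (1.20, adjusted p = 0.00398), Gbp2 (1.61, adjusted p = 0.00646), Ifitm3 (-1.02, adjusted p = 0.0106) and Cmpk2 (-0.86, adjusted p = 0.0268), and 4 were called against Het-Ctrl, where 2.73% and 1.92% of all probe sets were called. Without Hom-Ctrl 2, where calls over all probe sets fell to 0.446%, Bst2 alone was called against WT-Ctrl (1.40, adjusted p = 0.0105), and Gbp2 was not (0.95, adjusted p = 0.138). Against Het-Ctrl, Bst2 was 0.86 log2 units higher without Hom-Ctrl 1 and 1.06 without Hom-Ctrl 2, and Gbp2 was 1.45 and 0.79 higher. Within run 1, Bst2 was 1.22 and Gbp2 1.05 log2 units higher in Hom-Ctrl than in WT-Ctrl, and within run 2 they were 1.33 and 1.65 higher.

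With NMyc, 0 of 36 genes were called between any pair of genotypes, and 0% of all probe sets were. Between Hom-NMyc and WT-NMyc 5 of the 36 genes had an unadjusted p under 0.05, against 1873 of the 22206 tested probe sets. Igtp had the smallest, at 6.20 and 6.13 in Hom-NMyc against 4.85 and 4.93 in WT-NMyc (log2 difference 1.28, SE 0.28, adjusted p = 0.233). Tap1 came next, at 9.24 and 9.21 in Hom-NMyc against 8.60 and 8.61 in WT-NMyc (0.62, SE 0.16, adjusted p = 0.344). Between Hom-NMyc and Het-NMyc 3 genes had an unadjusted p under 0.05, against 1093 of all tested probe sets, with 0.978 as the smallest adjusted p. Between Het-NMyc and WT-NMyc 1 gene did, Cmpk2 (0.44, adjusted p = 1), against 576 of all tested probe sets.

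The rest of the interferon pathway was read from 6 lists of genes that are not among the 38, ordered from signal to response, all for the averaged NMyc effect. The counts of all 6 lists stand beside 33.6% of tested probe sets called in that effect, 18.2% higher and 15.5% lower. Of 17 interferon genes 1 rose and 1 fell, with a median of -0.04. Ifnb1, the first interferon made after virus sensing, had a difference of 0.45 (adjusted p = 0.00105), and Ifnz of -0.35 (adjusted p = 0.00953). All 17 except Ifnl3 lay below the 95th percentile of negative controls on every array.

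Receptor and JAK-STAT genes fell more uniformly, at 11 of 13 against 15.5% of all probe sets, with a median of -0.35. Irf2 (-0.96, adjusted p = 2.24e-06) and Irf1 (-0.78, adjusted p = 3.25e-06), factors that bind ISRE-like sites, had the smallest p, followed by Jak2 (-0.79, adjusted p = 7.52e-06), the kinase of the interferon gamma receptor. Ifnar2, a chain of the type I receptor, had a difference of -0.62 (adjusted p = 0.000196). Ifnar1 (-0.19, adjusted p = 0.114) and Irf8 (0.05, adjusted p = 0.807) were not called.

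Sensors and adaptors went both ways, with 4 of 18 higher and 8 lower. Tmem173, listed in the table as Sting1, encodes the adaptor of cytosolic DNA sensing and rose (1.31, adjusted p = 1.33e-07), and so did the DNA sensor Mb21d1, listed as Cgas (0.75, adjusted p = 0.00508). Zbp1 (-1.15, adjusted p = 1.88e-07), a sensor of Z-form nucleic acid, and Ddx58 (-1.42, adjusted p = 7.98e-07), which encodes RIG-I, fell, as did Tlr4 (-0.88, adjusted p = 5.99e-06), the receptor for bacterial lipopolysaccharide. Mb21d1 was named after its value was seen.

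Negative regulators were split too, with 4 of 13 higher and 5 lower. Tnfaip3 (-1.71, adjusted p = 3.68e-07), a brake on NF-kB, and Samhd1 (-0.87, adjusted p = 6.25e-06), which breaks down nucleotides, fell. Rnaseh2b (1.21, adjusted p = 5.63e-07) and Rnaseh2a (0.79, adjusted p = 3.24e-06), subunits of the enzyme that removes ribonucleotides from DNA, rose.

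MHC class I genes are known to respond to interferon too, and 6 of 11 fell while 2 rose (median -0.46). H2-D1 (-0.96, adjusted p = 1.52e-06) and H2-K1 (-0.80, adjusted p = 3.88e-06), the heavy chains, and Tapbp (-0.74, adjusted p = 1.81e-06), which holds them at the peptide pump, fell. Psmb10 (0.84, adjusted p = 8.88e-06), an immunoproteasome subunit, rose. Probe sets of the closely related H2 genes may share signal.

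Of 25 further interferon-induced genes 16 fell and 0 rose, with a median of -0.46. The smallest p were those of Sp100 (-1.61, adjusted p = 1.67e-09), a nuclear body protein, Slfn2 (-1.54, adjusted p = 2.47e-08), Samd9l (-1.47, adjusted p = 2.14e-07) and Ifi27 (at least 2.48-fold lower, adjusted p = 6.07e-07).

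**Figure D5:**
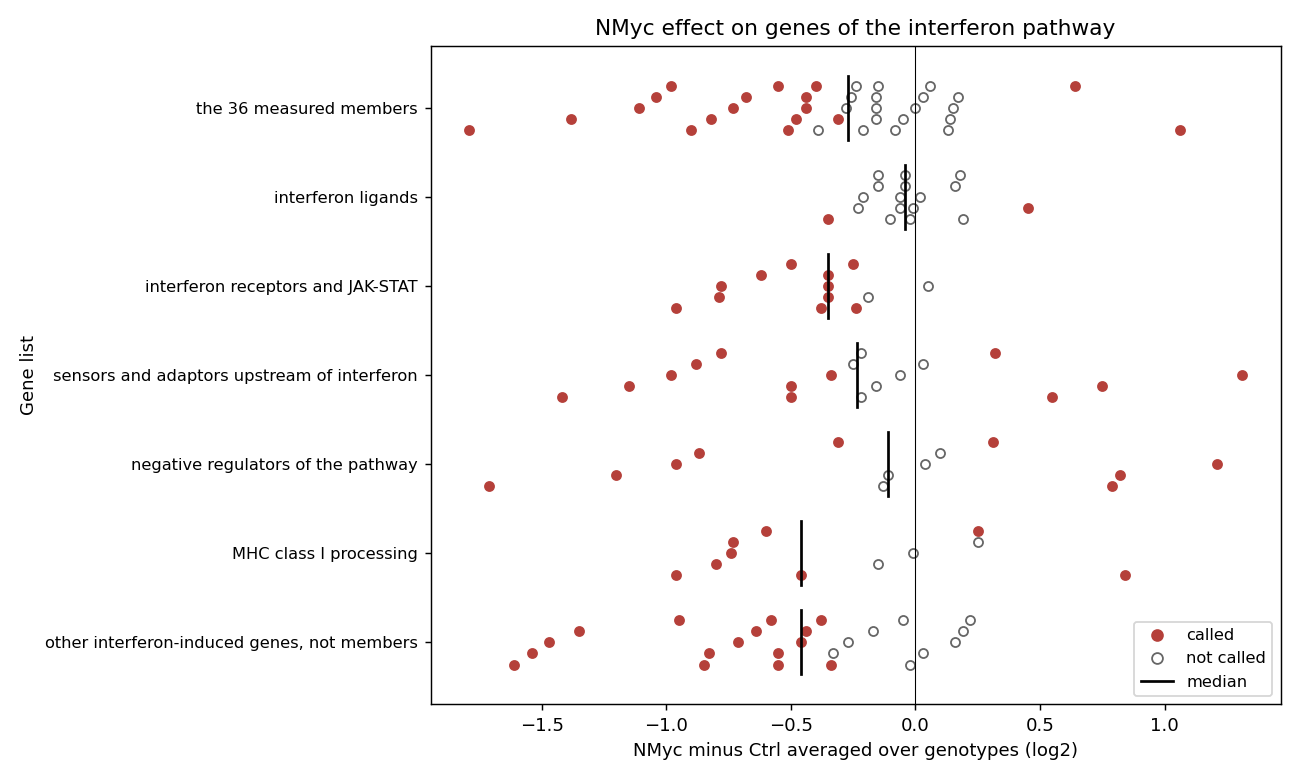
NMyc minus Ctrl averaged over genotypes (x axis, log2) for each gene of the 36 and of the 6 other interferon lists (y axis), with called genes filled, genes that were not called open, and a bar at each list's median. The medians run from -0.46 for MHC class I and for the further induced genes to -0.04 for the interferon genes.

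Markers of maturing blood cells moved with these differences. Where no other comparison is named, marker counts are for the averaged NMyc effect, with 18.2% of all probe sets called higher and 15.5% lower. Monocyte and macrophage markers fell in 6 of 8 genes, and their summed log2 level was 11.87 to 12.10 on NMyc arrays, against 13.25 to 14.07 on Ctrl arrays. Megakaryocyte markers fell in 6 of 6, at 9.80 to 9.94 on NMyc arrays, against 11.78 to 12.44 on Ctrl arrays. Neutrophil markers fell in 8 of 10 and rose in 2, at 15.07 to 15.22 on NMyc arrays, against 15.27 to 15.67 on Ctrl arrays. Mast cell and basophil markers fell in 7 of 8 and rose in 1, at 13.88 to 14.23 on NMyc arrays, against 14.53 to 15.13 on Ctrl arrays. Stem and progenitor markers fell in 4 of 9 and rose in 1, at 12.73 to 13.02 on NMyc arrays, against 12.92 to 13.28 on Ctrl arrays. Of them 8 of 9 were above the control median on all arrays. So were 8 of 8 monocyte and macrophage, 10 of 10 neutrophil, 8 of 8 mast cell and basophil and 6 of 6 megakaryocyte markers. Being above that median therefore does not check the labelled cell type.

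Plasmacytoid dendritic cells are known as strong producers of type I interferon, and their markers fell in 1 of 7, at 9.65 to 10.09 on NMyc arrays, against 9.76 to 10.43 on Ctrl arrays. Of these, Ccr9 was above the control median on no array. Among erythroid markers Tfrc, the transferrin receptor, rose (1.83, adjusted p = 3.12e-06), and Klf1, Epor, Alas2 and Car1 had differences from -0.09 to 0.08. Their summed level, with Tfrc, was 10.18 to 10.92 on NMyc arrays, against 8.91 to 9.81 on Ctrl arrays. B lymphoid markers rose in 1 of 5, at 7.74 to 8.01 on NMyc arrays, against 7.50 to 7.88 on Ctrl arrays, and T and NK markers fell in 1 of 8, at 9.88 to 10.58 on NMyc arrays, against 9.77 to 11.07 on Ctrl arrays. Between Hom-Ctrl and WT-Ctrl 3 of 10 neutrophil markers were lower (15.27 to 15.32 in Hom-Ctrl, against 15.54 to 15.66 in WT-Ctrl) and 2 of 8 mast cell markers were higher (14.90 to 15.13 in Hom-Ctrl, against 14.53 to 14.82 in WT-Ctrl). In that comparison 3.91% of all probe sets were called, 2.03% higher and 1.88% lower. The part of these cell types in the differences of the interferon-stimulated genes was not tested.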

How the data were processed

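RNA from 14 mouse HPC samples was hybridised to Affymetrix whole-transcript arrays, 1 array a sample. Per the submitters' processing notes, the authors used Affymetrix Expression Console, and the deposited values are log2 numbers, 1 per probe set and array. How probes were summarised and arrays normalized is not stated there, nor is the software version, and a normalization that equalises arrays would remove a shift shared by most genes. That the scale is log2 was inferred from the range of the values, and nothing was rescaled.

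From the 28846 probe sets of the table, 6640 control sets, recognised by their IDs, were left out, and 22206 were tested. Of these, 19572 had 1 symbol in the platform annotation and 2634 had none listed. Group means of the 6 groups were fitted with limma 3.58.1 in R 4.3.3 (lmFit, eBayes, two-sided, 8 residual and 7.3 prior degrees of freedom), and 12 contrasts were adjusted with Benjamini-Hochberg over all tested probe sets. Every adjusted p is from this fit unless a sentence names a left-out array or a block. The fit was tested on simulated data. Where arrays of 1 of the groups compared were not above the negative control median, they were put at it and the fold is a bound. Summed marker levels are the log2 of summed linear values.

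Values on every array were given for up to 3 called genes a role, for genes called between genotypes, and for Irf7, Stat2 and Irf9, and from each other list up to 4 called genes were named. The genes and lists were chosen with earlier results of these data known. Alternatives were quantile normalization, blocks for replicate number or code run, a filter on dim probe sets, a mean-variance trend, leaving out only AFFX control sets, and leaving out each array. Promoters came from RefSeq, and 8 genes had none in the table used.

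Whether replicate numbers pair arrays was checked by correlating deviations from group means. Same-numbered arrays of WT-Ctrl and Het-Ctrl correlated at 0.24, 0.27 and 0.25, so the numbers paired these groups, whose same-numbered arrays also share a code run. Same-numbered Ctrl and NMyc arrays, which lie in different code runs, correlated at -0.13 to 0.03. Over all groups the median was 0.08 within a code run and -0.07 between code runs.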

Additional observations from a re-analysis of the deposited data

How the results depend on the processing

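Across 20 or 21 alternative settings, 34 of the 56 called differences of single genes were called under every setting, and 0 reversed. For the averaged NMyc effect, the number of called genes (18) was 17 with quantile normalization, 17 with a replicate block, 15 with a code run block, 17 with a mean-variance trend, 18 without dim probe sets and 16 with only AFFX control sets left out. It was 16 with code runs 2 and 3 only, a setting chosen after seeing the data. Leaving out 1 array at a time gave 16 to 19 calls for the averaged effect, 7 to 10 in WT, 6 to 13 in Het, 7 to 13 in Hom, 1 to 5 for Hom-Ctrl against WT-Ctrl, 1 to 4 for Hom-Ctrl against Het-Ctrl and 0 in the other 6 comparisons. In Het the lowest counts were 6 without Het-NMyc 1 and 7 without Het-NMyc 2, and in Hom they were 7 without either Hom-NMyc array. Calls over all probe sets fell with them, to 11.3%, 11.2%, 10.7% and 8.95%. Hom-Ctrl against WT-Ctrl had 2 calls without WT-Ctrl 3 (2.13% of all probe sets) and 1 without Hom-Ctrl 2 (0.446%). Hom-Ctrl against Het-Ctrl had 1 without Het-Ctrl 3 (0.734%), 1 without Hom-Ctrl 2 (0.248%) and 4 without Hom-Ctrl 1 (1.92%). With only AFFX control sets left out, the other control sets entered both the fit and the adjustment, and these comparisons had 2 and 1 calls. Over all sets in that fit, 442 and 231 were called. The cause of these changes was not tested.

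With the replicate block, 11 genes were called in WT, 12 in Het, 13 in Hom, 3 for Hom-Ctrl against WT-Ctrl, 2 for Hom-Ctrl against Het-Ctrl and 0 for Het-Ctrl against WT-Ctrl. The replicate block ended 3 calls of single genes (Oasl2 averaged, Herc6 in Het, Cmpk2 between Hom-Ctrl and WT-Ctrl). The code run block ended 7, among them Xaf1 in Het (-0.68, adjusted p = 0.0735) and Parp9 in Hom (-0.62, adjusted p = 0.0600). For the 10 genes not above the control median on every array, signal limits what a difference can show.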
